A study of Mus musculus with 6 samples.

Results

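RNA-seq libraries from newborn mouse calvaria were examined for 9 genes of the complement system and the acute-phase response, C3, C4b, Cfb, Serping1, Hp, Lbp, Cp, Saa3 and Itih4. They were taken by gene symbol from the deposited count tables, and all 9 were found among the 44556 symbols listed. Of the 9, 7 had enough counts to enter the test of genotype, and Saa3 and Itih4 did not. The samples were parietal bone of newborn C57BL/6 mice, with 3 libraries from OsxCre mice and 3 from OsxCre;Stat3fl/fl littermates. Both genotypes carried OsxCre, a Cre transgene driven by the Osterix promoter that acts mainly in osteoblast precursors. The groups differed in the floxed Stat3 alleles, from which Cre removes several exons. Cells of the bone that do not express Cre keep Stat3, and whole tissue was sequenced. The comparison asks how loss of Stat3 in osteoblast-lineage cells changes gene expression in the calvaria.

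Complement is a cascade of plasma proteins that marks surfaces for phagocytosis. Its classical and lectin arms cleave C4 and C2, its alternative arm uses factor B, and all arms converge on C3. Acute-phase proteins are made mainly by the liver during inflammation, where IL-6-type cytokines signal through gp130 to STAT3, and IL-1 signals through NF-κB and C/EBP factors. Several of them are also made locally by macrophages, adipocytes, fibroblasts and other cells.

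The libraries held between 8193651 and 12080044 counts. Levels are given as CPM, the count of a gene relative to the library size after TMM scaling, and a floor of 3 counts corresponded to between 0.248 and 0.366 CPM. Differences are given as log2 ratios, the log2 fold change of OsxCre;Stat3fl/fl over OsxCre. Stat3 itself was not lower in the OsxCre;Stat3fl/fl libraries (log2 ratio 0.12, adjusted p = 0.442), and the count per gene does not separate the floxed exons. The study describes the newborns as male. The X-inactivation transcript Xist had 7333 to 12392 counts, and the Y-linked genes Ddx3y, Kdm5d, Eif2s3y and Uty had 0 or 1. The 13 osteoblast markers were all detected, and 1 of them, Ibsp, which encodes bone sialoprotein, fell (log2 ratio -0.66, adjusted p = 0.0213, called in 2 of 6 fits that left out one library). Of 12 skeletal muscle markers, the myosin heavy chain gene Myh4 fell (log2 ratio -3.61, adjusted p = 3.87e-05, called in 6 of 6 such fits) and Myh3 rose (log2 ratio 1.71, adjusted p = 0.0204, called in 2 of 6). OsxCre library 3 and OsxCre;Stat3fl/fl library 2 stood apart by low Ttr, a choroid plexus and liver gene, with 9.23 and 2.21 CPM against 1055 to 2597 CPM in the other libraries. OsxCre library 3 was also the highest of the OsxCre libraries for 8 of 8 adipocyte markers and 11 of 12 neutrophil markers tested.

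The set of promoter sequences used here, on RefSeq starts (GRCm38.p6), held 4 of the 9 genes, namely C3, Cp, Itih4 and Saa3. C4b, Cfb, Serping1, Hp and Lbp had no entry in that set, so their promoters were not examined. The 250 bases before the annotated start of C3 and Itih4 are shown because they hold letters of the motifs of acute-phase regulators, C/EBP and STAT factors, which are in capitals. The window of C3 is chr17:57228137-57228386 on the minus strand, and that of Itih4 is chr14:30886226-30886475 on the plus strand. For Saa3, whose listed start lies inside the annotated gene, 28 bases are shown, chr7:46715779-46715806 on the minus strand.
C3: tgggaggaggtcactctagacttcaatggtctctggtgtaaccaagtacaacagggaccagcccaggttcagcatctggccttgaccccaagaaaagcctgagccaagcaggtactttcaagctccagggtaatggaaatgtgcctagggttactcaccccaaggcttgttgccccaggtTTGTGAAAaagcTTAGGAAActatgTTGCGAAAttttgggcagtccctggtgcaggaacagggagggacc
Itih4: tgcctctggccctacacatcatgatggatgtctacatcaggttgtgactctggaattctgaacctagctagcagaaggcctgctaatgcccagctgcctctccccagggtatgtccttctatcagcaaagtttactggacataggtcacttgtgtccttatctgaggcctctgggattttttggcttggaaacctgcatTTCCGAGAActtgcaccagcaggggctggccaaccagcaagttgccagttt
Saa3: cTTCTGAAAGAGAAAttatgggtaagtg

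Both strands were searched. The capitals in C3 are 3 matches to TTNNGNAA, the core of a C/EBP motif, at -70 to -63, -58 to -51 and -45 to -38 from the start. The last of these also matches the stricter TTGCGNAA, a subset of the core. The core was found in 36.8% of the 250-base windows before 32851 annotated starts and the stricter motif in 0.67%. The capitals in Itih4 are TTCCGAGAA at -51 to -43, a match to the STAT motif TTCNNNGAA, which was found in 7.02% of the windows. In Saa3 the capitals join a C/EBP core at -129 to -122 with an overlapping match to an interferon-response motif, spelled GAAA, any 2 bases, GAAA, at -125 to -116, found in 2.98% of the windows. The NF-κB motif spelled GGGA, any base, TTTCC, found in 0.356% of the windows, were in none of those of the 4 genes. Each of the 2 listed starts of Cp had 1 match to the C/EBP core, and the Saa3 window had 4. These matches describe the sequence only.

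The levels of the 9 genes in OsxCre calvaria were compared per kilobase of annotated exon, in CPM per kb. The length joined all annotated exons of a gene, such as 9566 bases for Cp, 4831 for Lbp and 1343 for Hp. Single transcripts can be shorter, so the order and the gaps between genes depend on this choice. Serping1 was the highest, at 61.5 ± 7.71 CPM per kb (SD, n = 3), followed by Hp at 25.8 ± 11.1. Cp was at 9.04 ± 1.45, Lbp at 7.23 ± 1.49, C3 at 3.35 ± 2.42 and C4b at 2.79 ± 0.838 CPM per kb. In this order the ranges of Cp and Lbp, of Lbp and C3, and of C3 and C4b overlapped over the 3 libraries. Cfb was at 1.93 ± 0.398 CPM per kb, and Saa3 and Itih4 were lowest, at 0.239 ± 0.289 and 0.103 ± 0.046, with overlapping ranges. By these lengths, the ranges of Serping1, Hp, C4b and Cfb did not reach that of the next gene in this order.

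None of the 7 genes tested passed an adjusted p of 0.05 from edgeR's quasi-likelihood test, in either direction. Over all 15600 genes tested, 0.776% were higher and 0.481% lower in OsxCre;Stat3fl/fl at that threshold, or 1.26% in all. At an unadjusted p of 0.05, 4 of the 7 passed, against 16.4% of all genes. Serping1, C4b and Lbp had higher values, where 8.03% of all genes did, and Hp had lower values, where 8.34% did. The count of 4 was 2 without OsxCre library 2, OsxCre library 3 or OsxCre;Stat3fl/fl library 2, and 1 without OsxCre;Stat3fl/fl library 1. Without OsxCre library 3 the 2 were Serping1 (unadjusted p = 0.0366) and C3 (0.0301, log2 ratio 0.72), which was not among the 4. Serping1 kept an unadjusted p under 0.05 in 6 of 6 fits that left out one library, C4b and Hp in 3 of 6 each, and Lbp in 1 of 6. DESeq2 and limma-voom also gave 0 of the 7 at the adjusted threshold. Among the 7, the genotypes did not overlap for Serping1 (higher) and Hp (lower), and 23% of all genes tested had such separate ranges, 10.8% higher and 12.2% lower. The median log2 ratio of the 7 was 0.14, beside -0.0037 for all genes tested. Without scaling for library size the median of the 7 was -0.24 and that of all genes -0.38, and Serping1, Lbp and Cp then changed sign, to -0.0090, -0.022 and -0.24. Adjusted p-values below cover all genes tested.

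**Figure D1:**
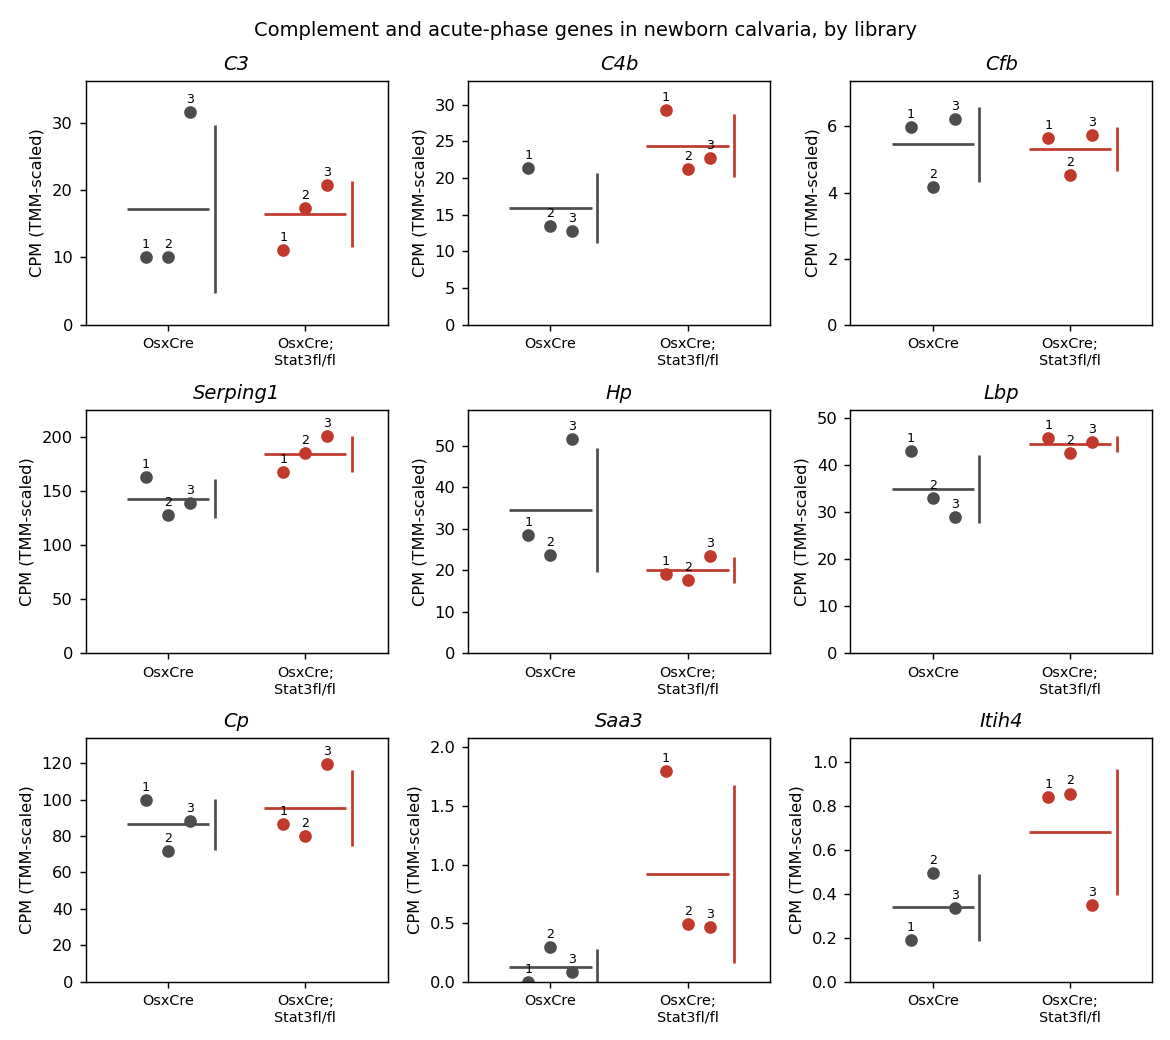
Level of each of the 9 genes by library, in CPM scaled by TMM on an axis from 0, for OsxCre (grey) and OsxCre;Stat3fl/fl (red). Points are libraries with their numbers, horizontal lines are means and vertical lines are 1 SD (n = 3, cut at 0); OsxCre library 3 is highest for C3 (31.6 CPM) and Hp (51.6 CPM), and the genotypes do not overlap for Serping1, Hp and Saa3.

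C3 encodes the central component of complement, whose cleavage releases an anaphylatoxin and leaves a fragment bound to the target. The gene lies on chromosome 17 from 57203967 to 57228136 (GRCm38). It had 9.99, 10.01 and 31.6 CPM in OsxCre libraries 1 to 3 and 11.2, 17.3 and 20.8 CPM in OsxCre;Stat3fl/fl libraries 1 to 3. OsxCre library 3 was above all other libraries and the 2 other OsxCre libraries were below all of them, so the genotypes overlapped. The log2 ratio was -0.07 with a standard error of 0.46 (adjusted p = 0.962), and its 95% interval reached from -1.15 to 1.00, wide enough to hold a large change in either direction. C3 had the widest spread of the 7 genes in OsxCre, with a coefficient of variation of 72.4%, where the median of all genes tested was 10.3%. Without OsxCre library 3 its log2 ratio was 0.72 (adjusted p = 0.284). The sign of the C3 difference thus changed with 1 library.

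The summed level of the adipocyte markers was 741, 841 and 2446 CPM in the OsxCre libraries and 1054, 2175 and 1803 CPM in the OsxCre;Stat3fl/fl libraries. Of the 8 adipocyte markers tested, 8 were highest among OsxCre in library 3 and 8 were lowest among OsxCre;Stat3fl/fl in library 1, as C3 was. Among the OsxCre;Stat3fl/fl libraries the sum was highest in library 2 and C3 in library 3. None of the 8 passed the test of genotype (0 at an unadjusted p of 0.05 too). The list held 10 genes, and 2 had too few counts to be tested. Of these, Lep had 9, 8 and 16 counts in the OsxCre libraries and 1, 2 and 2 in the OsxCre;Stat3fl/fl libraries. Retn had 18, 17 and 10 counts against 6, 9 and 7, and was thus lowest among OsxCre in library 3. Adipocytes are known to express C3, and the part of these cells in its level was not tested. In whole tissue, a change in the number of cells of a type and a change in RNA per cell cannot be told apart.

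C4b encodes complement component 4, which with C2 forms the C3 convertase of the classical and lectin arms. It lies on chromosome 17 from 34728139 to 34743902 (GRCm38). It had 21.4, 13.5 and 12.8 CPM in the OsxCre libraries and 29.3, 21.2 and 22.7 CPM in the OsxCre;Stat3fl/fl libraries. OsxCre library 1 lay just above the lowest OsxCre;Stat3fl/fl library, so the genotypes overlapped by that one value. The log2 ratio was 0.62 (standard error 0.22, 95% interval 0.11 to 1.13), with an unadjusted p of 0.0240 and an adjusted p of 0.221. It ranged from 0.47 to 0.90 with one library left out. C4a, a near-identical copy on the same chromosome that RefSeq lists as a transcribed pseudogene, had a log2 ratio of -0.05 (adjusted p = 0.964), and how reads were shared between C4b and C4a is not given in the sources used here.

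Cfb encodes factor B, the protease of the alternative-pathway convertase, and lies near C4b on chromosome 17, from 34856374 to 34862514 (GRCm38). It had 6.00, 4.16 and 6.21 CPM in the OsxCre libraries and 5.64, 4.54 and 5.73 CPM in the OsxCre;Stat3fl/fl libraries. The OsxCre;Stat3fl/fl values all fell within the OsxCre range. The log2 ratio was -0.04 with a standard error of 0.23 (adjusted p = 0.955) and a 95% interval from -0.57 to 0.48. Of the 21 listed genes of the MHC class III region that surrounds Cfb and C4b, 20 were tested and 0 passed the adjusted threshold (2 at an unadjusted p of 0.05). Besides C4b, the smallest p-values among them belonged to Neu1, a lysosomal sialidase, and Ager, the receptor for advanced glycation end products, with log2 ratios of 0.28 (adjusted p = 0.234) and 0.38 (adjusted p = 0.328).

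Serping1, the C1 inhibitor that blocks C1r, C1s, the MASP proteases and kallikrein, lies on chromosome 2 from 84765360 to 84775444 (GRCm38). It had 163, 128 and 139 CPM in the OsxCre libraries and 167, 185 and 201 CPM in the OsxCre;Stat3fl/fl libraries. The genotypes did not overlap, and the nearest values were OsxCre library 1 and OsxCre;Stat3fl/fl library 1. This was a log2 ratio of 0.37 (standard error 0.11, 95% interval 0.11 to 0.62), or a fitted 1.29-fold, with an unadjusted p of 0.0111 and an adjusted p of 0.164. This was the smallest p of the 7 genes. When single libraries were left out its log2 ratio stayed between 0.29 and 0.47, and the adjusted p between 0.170 and 0.386.

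Hp encodes haptoglobin, which binds free hemoglobin and is made by liver, fat and maturing neutrophils. It lies on chromosome 8 from 109575128 to 109579172 (GRCm38). It had 28.5, 23.7 and 51.6 CPM in the OsxCre libraries and 19.0, 17.7 and 23.5 CPM in the OsxCre;Stat3fl/fl libraries. Every OsxCre;Stat3fl/fl value was below every OsxCre value, but the highest and lowest of them, 23.5 and 23.7 CPM, were nearly the same. Its log2 ratio was -0.79 (standard error 0.28, 95% interval -1.45 to -0.13), with an unadjusted p of 0.0242 and an adjusted p of 0.222. Without OsxCre library 3 it was -0.38 (adjusted p = 0.349). Hp passed the adjusted threshold in 1 of the 17 alternatives run, the fit without scaling for library size (log2 ratio -1.20, adjusted p = 0.0254). That fit called 5451 of all 15600 genes lower.

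Neutrophils are a known source of Hp. Of 14 neutrophil markers listed, 12 were tested, and 3 fell at an adjusted p under 0.05, namely S100a9 and Mmp8, which encode a calcium-binding protein and a collagenase of neutrophils, and Retnlg, a resistin-like gene of granulocytes. Their log2 ratios were -1.25 (adjusted p = 0.0423), -1.05 (adjusted p = 0.0456) and -1.67 (adjusted p = 0.0154). S100a9 had 127, 145 and 212 CPM in the OsxCre libraries and 74.9, 52.5 and 76.0 CPM in the OsxCre;Stat3fl/fl libraries. Leaving out any one library ended the call of S100a9 and of Mmp8, with log2 ratios of -1.39 to -1.01 and -1.17 to -0.91, and Retnlg was kept in 4 of 6 such fits (-1.81 to -1.48). With library totals alone 5 of the 12 were lower at the adjusted threshold. Without scaling for library size 9 were, in the fit that called 5451 of all 15600 genes lower. The median log2 ratio of the 12 was -0.96, and the granulocyte precursor genes Mpo and Prtn3 were the 2 with values above 0. The summed level of the list was 1089 to 1443 CPM in OsxCre and 751 to 1115 CPM in OsxCre;Stat3fl/fl, and most of it was Mmp9, which osteoclasts also express. Erythroid markers, whose product hemoglobin haptoglobin binds, were also highest in OsxCre library 3 for 6 of the 6 tested. Their summed level was 6495 to 9081 CPM in OsxCre and 3257 to 5899 CPM in OsxCre;Stat3fl/fl, and 0 of 6 passed the adjusted threshold (3 at an unadjusted p of 0.05, all lower). The part of neutrophils, erythroid cells or adipocytes in the Hp difference was not tested.

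**Figure D2:**
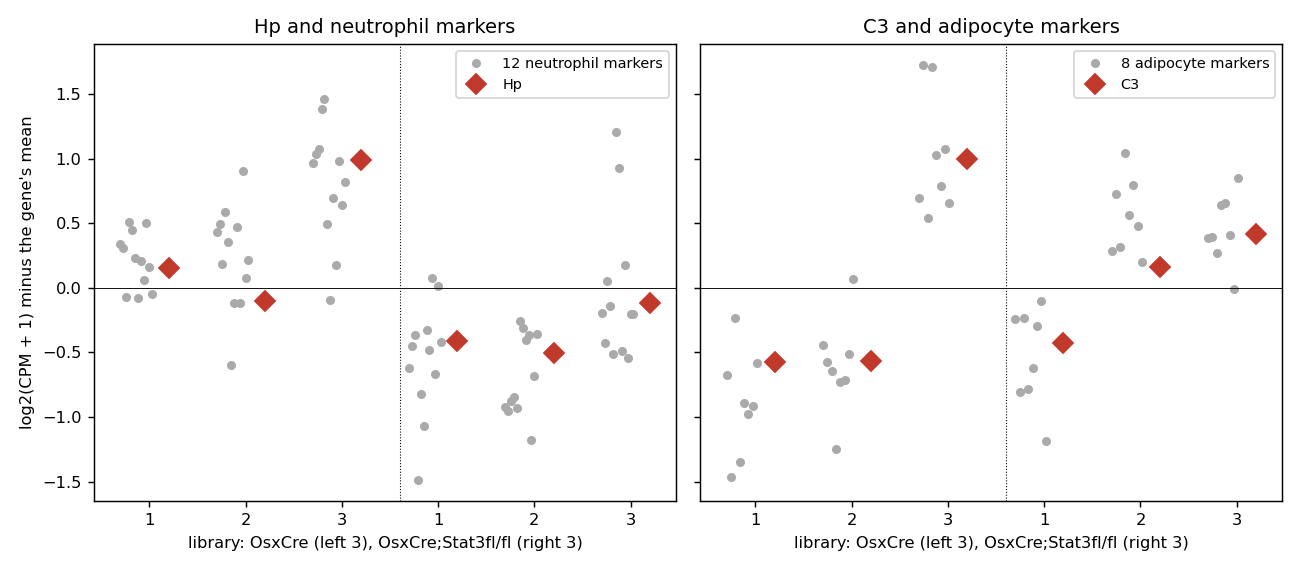
Level of Hp beside 12 neutrophil markers (left) and of C3 beside 8 adipocyte markers (right) in each library, as log2(CPM + 1) minus the mean of the gene over the 6 libraries. Diamonds are Hp and C3, grey points are single marker genes, and the dotted line separates OsxCre (left) from OsxCre;Stat3fl/fl (right). In OsxCre library 3 both genes stand at their highest of the 6 libraries. Among the OsxCre libraries, 11 of 12 neutrophil and 8 of 8 adipocyte markers are highest there, and among all 6 libraries 9 of 12 and 6 of 8 are.

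Lbp encodes the lipopolysaccharide-binding protein, which hands bacterial lipopolysaccharide to CD14, and lies on chromosome 2 from 158306493 to 158332852 (GRCm38). It had 42.9, 32.9 and 29.0 CPM in the OsxCre libraries and 45.8, 42.4 and 44.9 CPM in the OsxCre;Stat3fl/fl libraries. The OsxCre;Stat3fl/fl values were close together, with a coefficient of variation of 3.91%, and OsxCre library 1 fell among them. For Lbp the log2 ratio was 0.35 (standard error 0.14, 95% interval 0.02 to 0.68), with an unadjusted p of 0.0418 and an adjusted p of 0.282. It lay between 0.22 and 0.53 with one library left out. Cd14 itself had a log2 ratio of -0.15 (adjusted p = 0.768).

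Cp encodes ceruloplasmin, a copper-carrying ferroxidase, and lies on chromosome 3 from 19956933 to 20009750 (GRCm38). It had 99.5, 71.9 and 88.0 CPM in the OsxCre libraries and 86.8, 80.05 and 119.3 CPM in the OsxCre;Stat3fl/fl libraries. The ranges overlapped, and OsxCre;Stat3fl/fl library 3 was the highest. Its log2 ratio was 0.14 with a standard error of 0.17 (adjusted p = 0.746) and a 95% interval from -0.26 to 0.54. Without that library it was -0.05 (adjusted p = 0.932).

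**Figure D3:**
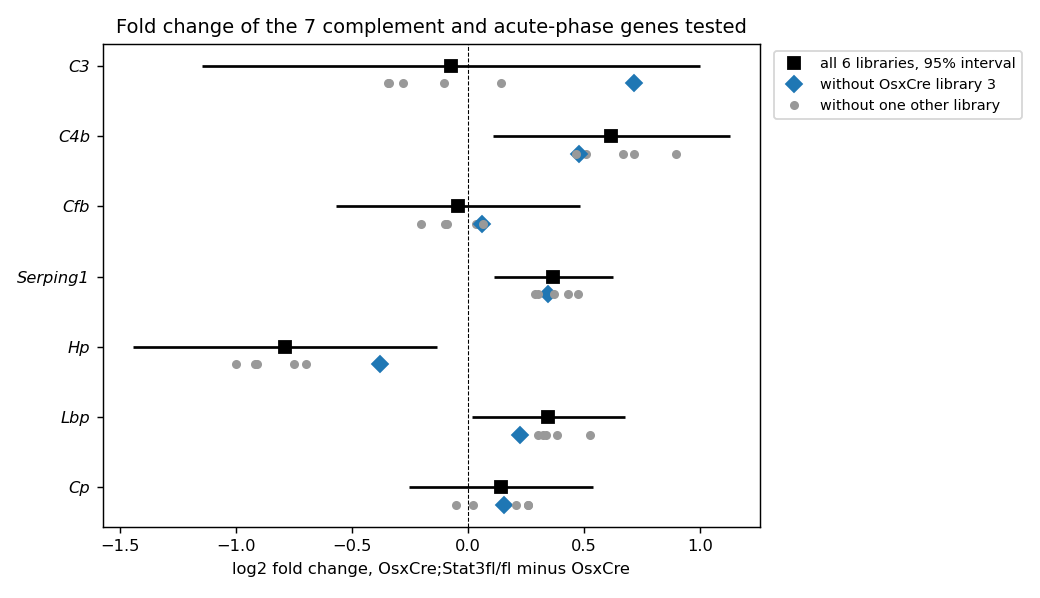
Log2 fold change of the 7 genes tested, OsxCre;Stat3fl/fl minus OsxCre, from edgeR with TMM scaling. Squares and lines are the fit of 6 libraries with its unadjusted 95% interval, grey points leave out one library, and blue diamonds leave out OsxCre library 3; that library moves C3 from -0.07 to 0.72 and Hp from -0.79 to -0.38.

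Saa3 and Itih4 were near the limit of detection. Saa3, a serum amyloid A gene expressed outside the liver by macrophages and fat, lies on chromosome 7 from 46711998 to 46719615 (GRCm38). It had 0, 3 and 1 counts in the OsxCre libraries and 15, 4 and 4 counts in the OsxCre;Stat3fl/fl libraries. All OsxCre libraries were at or under the floor of 3 counts and all OsxCre;Stat3fl/fl libraries above it, with most of the counts in library 1. Over the summed 4 and 23 counts, the ratio of the scaled levels was 7.47, with an exact 95% interval from 2.55 to 29.7 that covers counting error only. In an alternative chosen after seeing the data, it was 3.89 (1.04 to 17.7) without OsxCre;Stat3fl/fl library 1 and 20.6 (3.34 to 848) without OsxCre library 2, and between 5.05 and 9.37 without any of the other libraries. By a two-sided exact permutation test of its CPM the p was 0.1, and 3 libraries against 3 can give none smaller. When genes with low counts were kept in the edgeR test, Saa3 had an unadjusted p of 0.00578 and an adjusted p of 0.160. The close paralogs Saa1 and Saa2 had at most 2 counts in any library.

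Itih4 encodes a heavy chain related to the inter-alpha-trypsin inhibitors, made chiefly by the liver, and lies on chromosome 14 from 30886476 to 30901986 (GRCm38). It had 2, 5 and 4 counts in the OsxCre libraries and 7, 7 and 3 counts in the OsxCre;Stat3fl/fl libraries. The genotypes overlapped. The ratio over the summed 11 and 17 counts was 2.01, with an exact 95% interval from 0.887 to 4.74, and the exact permutation test gave p = 0.2. The ratio lay between 1.66 and 2.54 with one library left out, and its interval included 1 except without OsxCre;Stat3fl/fl library 3 (1.06 to 6.11).

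The other genes of each role were taken from lists. In the classical and lectin arms, 13 of 20 listed genes were tested, 1 rose and 0 fell at an adjusted p under 0.05. The gene that rose was C1qb, a chain of the C1q recognition molecule that macrophages make. C1qb had 107, 97.6 and 105 CPM in the OsxCre libraries and 153, 147 and 139 CPM in the OsxCre;Stat3fl/fl libraries, with a log2 ratio of 0.50 (standard error 0.07, adjusted p = 0.0253). The genotypes were well apart, yet the call ended when any one library was left out (log2 ratio 0.46 to 0.54, adjusted p up to 0.104) and without scaling for library size (log2 ratio 0.12, adjusted p = 0.397). The other chains, C1qa and C1qc, had log2 ratios of 0.12 (adjusted p = 0.488) and 0.24 (adjusted p = 0.181). At an unadjusted p of 0.05, 5 of the 13 genes of these arms passed, 4 higher and 1 lower, where 16.4% of all genes did. Of 12 macrophage markers, 0 passed the adjusted threshold. At an unadjusted p of 0.05, 5 of the 12 passed, 4 higher and 1 lower, where 16.4% of all genes did. The summed level of the 12 was 331 to 350 CPM in OsxCre and 355 to 359 CPM in OsxCre;Stat3fl/fl. The part of macrophages in the C1qb change was not tested.

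No gene of the alternative arm, the terminal pathway, the regulators or the receptors passed the adjusted threshold. Cfp, which encodes properdin, the stabilizer of the alternative convertase, had a log2 ratio of -0.20 (adjusted p = 0.309). Of the 7 terminal components only C8g entered the test (log2 ratio 0.09, adjusted p = 0.899), and the other 6 had at most 7 counts in any library. Among 12 regulators tested of 18 listed, Cd59a, which guards cells against the membrane attack complex, had a log2 ratio of -0.32 (adjusted p = 0.347), and Clu, which encodes the chaperone clusterin, of 0.63 (adjusted p = 0.390). Of 9 receptors listed, 7 were tested, and the log2 ratio was below 0 for each of them under all 5 scalings run. Their median under TMM was -0.20, beside -0.0037 for all genes tested. OsxCre library 3, which stood apart, was the highest of all 6 libraries for 4 of these 7. Without scaling for library size, 3 of the 7 receptors passed the adjusted threshold with lower values, in a fit that called 5451 of all 15600 genes lower, and 0 did under the other scalings. The smallest p-values of the receptors belonged to Cd93, Itgax and Itgam, with log2 ratios of -0.28, -0.82 and -0.20 and adjusted p-values of 0.369, 0.372 and 0.562. At an unadjusted p of 0.05, 0 of the 7 receptors, 0 of the 4 alternative-arm genes and 1 of the 12 regulators, Serping1, passed.

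In the list of acute-phase proteins, 17 of 40 genes were tested, 3 rose and 0 fell at an adjusted p under 0.05. Those that rose were Serpina3n, a protease inhibitor, and the metallothioneins Mt1 and Mt2, which bind zinc and copper. Serpina3n had 2.76, 3.77 and 2.85 CPM in the OsxCre libraries and 27.0, 16.7 and 23.7 CPM in the OsxCre;Stat3fl/fl libraries, a log2 ratio of 2.84 (standard error 0.23, adjusted p = 0.00363). It has close paralogs with which reads may be shared. Mt1 had 64.5, 43.4 and 54.7 CPM against 149, 158 and 168 CPM, a log2 ratio of 1.54 (adjusted p = 0.00577). Mt2 had 37.1, 21.6 and 27.6 CPM against 102, 104 and 120.2 CPM, a log2 ratio of 1.92 (adjusted p = 0.00768). Serpina3n stayed under an adjusted p of 0.05 in 6 of 6 fits that left out one library, and Mt1 and Mt2 in 5 of 6 (adjusted p up to 0.057 and 0.0634). The median log2 ratio of the 17 was 0.38, and 14 were above 0, or 9 without scaling for library size. The other 23 had at most 20 counts in any library.

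Hepatocyte markers were near 0 in these libraries. Of 16 listed, 15 were too low to be tested and had at most 20 counts in any library, a value that albumin (Alb) reached with 1, 0 and 5 counts in the OsxCre libraries and 20, 2 and 18 in the OsxCre;Stat3fl/fl libraries. Of the untested genes, Serpina1b, Fgg, Afp and Cps1 were higher in each OsxCre;Stat3fl/fl library than in any OsxCre library, at no more than 7 counts. Apoa2 and Tat had lower means in OsxCre;Stat3fl/fl, at no more than 6 counts. The part of liver RNA in the counts of Saa3 and Itih4 was not tested. The single marker tested was Ttr, which is also a choroid plexus gene. The most counted genes of the other marker lists were Lyz2 for macrophages, Mmp9 for neutrophils, Fabp4 for adipocytes, Col1a2 for osteoblasts, Acta1 for muscle, Ptgds for meninges and fibroblasts, Tubb3 for neurons and astrocytes, Pecam1 for endothelium and Hbb-bs for erythroid cells.

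Among the 27 listed inducers and regulators of the acute phase, 22 were tested, 1 rose and 0 fell at an adjusted p under 0.05. Cebpd encodes C/EBPδ, a factor that is induced in inflammation. It had 25.03, 19.2 and 22.5 CPM in the OsxCre libraries and 47.1, 60.1 and 46.3 CPM in the OsxCre;Stat3fl/fl libraries. The genotypes were well apart, with a log2 ratio of 1.20 (standard error 0.14, adjusted p = 0.0142), and the call was kept in 5 of 6 fits that left out one library (adjusted p up to 0.0715). Cebpa and Cebpb, the other C/EBP genes listed, had log2 ratios of 0.21 (adjusted p = 0.864) and -0.09 (adjusted p = 0.930). Il6 had at most 4 counts and Osm at most 11 in any library. Lif, another IL-6-type cytokine, had 82, 78 and 82 counts in the OsxCre libraries and 72, 50 and 83 in the OsxCre;Stat3fl/fl libraries (log2 ratio 0.13, adjusted p = 0.816). The receptor gene Osmr had a log2 ratio of 0.55 (adjusted p = 0.0683) and Il6st, which encodes gp130, of 0.12 (adjusted p = 0.502). Of the 22 inducers and regulators, 9 passed an unadjusted p of 0.05, 8 higher and 1 lower, where 16.4% of all genes did.

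**Figure D4:**
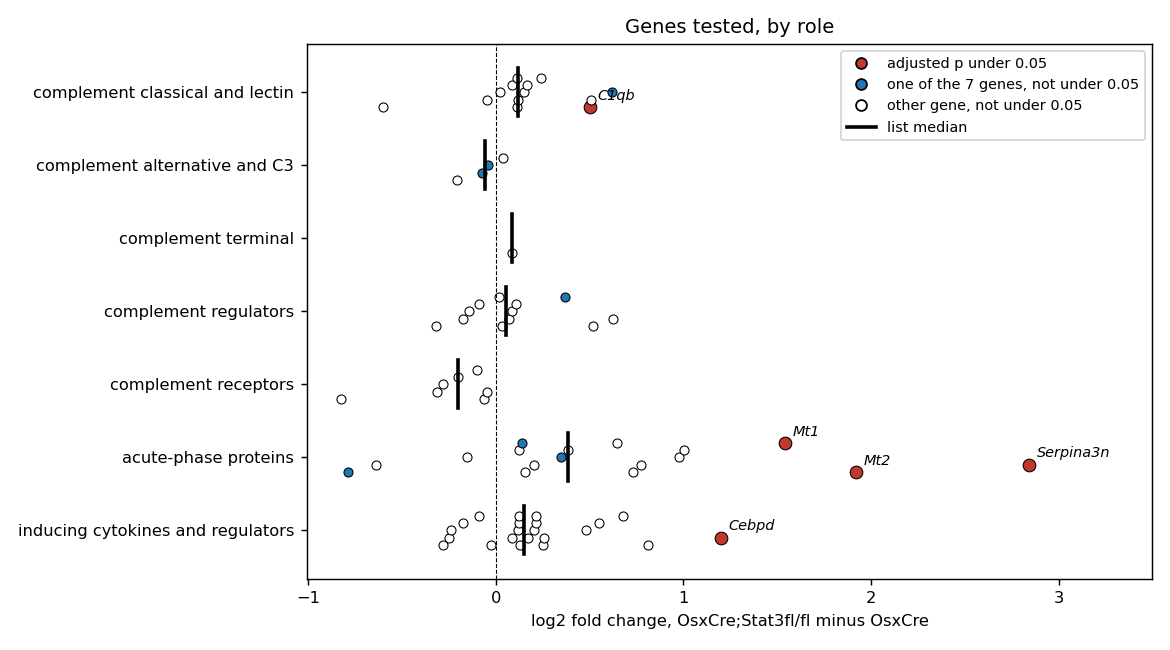
Log2 fold change, OsxCre;Stat3fl/fl minus OsxCre, of each gene tested in the role lists. Red points have an adjusted p under 0.05, blue points are the genes of the 7 studied, white points are other genes, vertical offsets only separate points, and bars are list medians; C1qb, Serpina3n, Mt1, Mt2 and Cebpd are the genes past the threshold and each lies above 0.

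For each of the 7 genes, the 2 genes with the nearest pattern over the 6 libraries were found by the root-mean-square difference of log2(CPM + 1) after centring. For C3 these were Cpn2, a carboxypeptidase N subunit, and Dgat1, an enzyme of triglyceride synthesis, at 0.080 and 0.126 log2 units. For C4b they were Hmga2 (0.082) and 1700036A12Rik (0.111), and for Cfb LOC102636383 (0.049) and Fam102a (0.060). For Serping1 they were C330013E15Rik (0.037) and Uaca (0.051), and for Lbp B230312C02Rik (0.051) and Zic2 (0.061). Hp was nearest to Myoz3 (0.163) and Nnt (0.165), and Cp to Slc26a2 (0.063) and Myo1d (0.066). None of these 14 was another of the 9 genes, so the 7 genes were not the nearest neighbours of each other. With 6 libraries and 15600 genes, such distances describe the pattern and no more.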

How the data were processed

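RNA was extracted from newborn parietal bone with TRIzol and sequenced from poly(A) libraries, per the labels. The authors deposited whole-number counts per gene symbol, without normalization. The study's methods name TopHat on mm9, whereas the submitters' processing notes list HISAT2 and GRCm38. The counting program, annotation and strand setting are not given in the sources used here. Gene positions are from RefSeq (GRCm38.p6), and exon lengths from GENCODE on NCBIM37. Genes were kept by edgeR's filterByExpr with a count of at least 10 and a total of at least 15. Libraries were scaled by TMM (factors 0.932 to 1.04) and compared with edgeR 4.0.16 (quasi-likelihood test, two-sided, Benjamini-Hochberg adjustment over 15600 genes) in R 4.3.3. Where no tool is named, p-values are from this test. The standard error was the log2 fold change over the square root of F. Intervals cover 95% and are unadjusted. The depth was 8193651 to 12080044 counts per library, and floors of 3 counts cover counting error only. Libraries of one genotype were not duplicates (chi-square per degree of freedom 7.51 or more). The methods give 3 mice per genotype. Pooling is not stated, so p-values measure the spread between these libraries.

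The genes named were the 9 genes, Stat3, the role-list genes past the threshold or else the 3 with the smallest p, the most counted gene of each marker list and the 2 nearest genes in pattern. Ttr, C4a, C1qa, C1qc, Cd14, Osmr, Il6st, Cebpa, Cebpb, Il6, Osm, Lif, Mpo, Prtn3, Saa1, Saa2, Alb, S100a9, Mmp8, Retnlg, Ibsp, Myh3, Myh4 and sex-linked genes were added after their values were seen. Serpina1b, Fgg, Afp, Cps1, Apoa2, Tat, Lep and Retn were also named after their values were seen. The genes, lists and motifs were chosen with earlier results of these data known. Alternatives were other scalings, filters and tests (DESeq2 1.42.0, limma 3.58.1), a replicate block and leaving out libraries. The fits were tested on simulated data.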

Additional observations from a re-analysis of the deposited data

How the results depend on the processing

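Across the 7 genes, 119 values were recomputed under alternatives, of which 105 kept their sign and their side of the adjusted threshold, 13 changed sign and 1 (Hp) newly passed. The 105 include the test against a 1.5-fold change, which reuses the main log2 ratios and is stricter, so its values could not move. With no library-size scaling, the log2 ratios of Serping1, Lbp and Cp were -0.0090, -0.022 and -0.24, that of Hp was -1.20, and 1 of the 7 genes was lower at an adjusted p under 0.05; the median of all genes moved to -0.38. C3 turned positive with limma-voom (0.078), with the replicate block (0.095) and, in an alternative chosen after seeing the data, without OsxCre library 3 and OsxCre;Stat3fl/fl library 2 together (0.69), as did Cfb in the last (0.17). With one library left out, C3 ranged from -0.34 to 0.72, Cfb from -0.20 to 0.06 and Cp from -0.05 to 0.26, with 0 of the 7 genes called in each fit. C3 was positive without OsxCre library 3 (0.72) and without OsxCre;Stat3fl/fl library 1 (0.14). Cfb was positive without OsxCre library 1 (0.033), OsxCre library 3 (0.060) or OsxCre;Stat3fl/fl library 2 (0.064). Cp was negative without OsxCre;Stat3fl/fl library 3 (-0.051).

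Over all genes, 121 were higher and 75 lower at an adjusted p under 0.05. These counts were 250 and 178 of 28016 without the filter, 317 and 235 with DESeq2, 23 and 5 against a 1.5-fold change, 73 and 27 without the 2 libraries named above, 7 to 67 and 5 to 36 with one library left out, and 0 and 1 with the replicate block. Lower genes numbered 114 with library totals and 5451 without scaling. Same-numbered libraries did not deviate together (correlations across genes -0.53 to -0.07), so the replicate block rests on a shared number only. Some differently numbered libraries did, with 0.53 for OsxCre library 2 and OsxCre;Stat3fl/fl library 1. For OsxCre library 3 and OsxCre;Stat3fl/fl library 2 the correlation was 0.44. With the block, C1qb, Serpina3n, Mt1, Mt2 and Cebpd had adjusted p-values of 0.0586 to 0.122. Apart from where a value names it, the cause of these shifts was not tested. Depth limited Saa3 and Itih4, with 27 and 28 counts in all libraries together.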
